A study of Mus musculus with 28 samples.

Results

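The core circadian clock is a feedback loop of transcription that runs in nearly every cell, the kidney's included. The 10 genes described here were chosen by symbol, with earlier results of these data known. They were the activators Arntl (also called Bmal1), Clock and Npas2 and the repressors Per1, Per2, Per3, Cry1 and Cry2. The others were the nuclear receptor Nr1d1 (Rev-erb alpha) and the output factor Dbp. All 10 were found among the 14845 genes of the deposited table, and all 10 passed the filter on low values together with 13495 genes in all (5 or more libraries at a value of 1 or above). 7 of the 10 had a value of at least 1 in each of the 28 libraries, and the exceptions were Arntl, Npas2 and Cry1.

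RNA-seq was done on total RNA from kidneys of male mice. The controls were db/m mice with both kidneys left in place ("intact"), 5 libraries at 26 weeks of age and 6 at 35 weeks. The diseased animals were db/db mice with a kidney surgically removed (uninephrectomized, "Unx"), 12 libraries at 26 weeks and 5 at 35 weeks, numbered 1, 2, 3, 5 and 6. The study used these mice to model advanced kidney disease of diabetes. db/db mice carry 2 mutated copies of the leptin receptor gene and become obese and diabetic, and db/m mice are lean heterozygotes. Genotype and surgery went together in every animal and cannot be told apart. The labels do not say that each library is a mouse of its own, though it was taken as one, and if mice were shared the p-values cover the spread of libraries alone. The labels give neither the hour of collection nor the light schedule, feeding or a batch. A difference between ages or between db/db Unx and db/m therefore cannot be told apart from a difference in any of these.

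In the loop, the protein of Arntl pairs with CLOCK or NPAS2 and switches on genes that carry an E-box, among them the Per and Cry genes, Nr1d1 and Dbp. PER and CRY proteins build up over hours and shut their own activators off. NR1D1 represses Arntl and Npas2 through the RORE element, and DBP acts on D-boxes such as those of the Per genes. As textbook background for rodent peripheral tissues, the transcripts peak in turn: Nr1d1 first, then Dbp and Per3, then Per2, later Cry1, and Arntl with Npas2 last, opposite to Nr1d1 and Dbp. Per1 also answers quickly to glucocorticoids, cAMP and stress.

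Promoter letters are shown for the 4 genes whose windows held a clock element, since these elements link the genes to each other. RefSeq promoter windows (GRCm38.p6, 250 bases before to 50 after a start) were found for 9 of the 10 genes, 13 windows in all. Both strands were searched for the E-box CACGTG, the D-box TTATGTAA or TTACGTAA, the RORE core TAGGTCA or TGGGTCA, and the cAMP response element TGACGTCA. None of these letters overlap in the windows shown. Each sequence runs 5′ to 3′ on the gene's strand and the element is in capitals. The Per3 window (chr4:151044676-151044915, minus strand) held 2 D-boxes, the Per1 window (chr11:69098699-69098938, plus strand, before a start inside the gene) and the Cry1 window (chr10:85185065-85185304, minus strand) an E-box each, and Arntl (30 bases, chr7:113207530-113207559, plus strand) an RORE core just after a start.
Per3 D-boxes: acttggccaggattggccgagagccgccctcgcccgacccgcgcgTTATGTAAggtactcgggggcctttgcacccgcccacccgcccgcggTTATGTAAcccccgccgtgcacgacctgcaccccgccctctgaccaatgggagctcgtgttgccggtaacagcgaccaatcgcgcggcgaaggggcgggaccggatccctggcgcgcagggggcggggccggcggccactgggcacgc
Per1 E-box: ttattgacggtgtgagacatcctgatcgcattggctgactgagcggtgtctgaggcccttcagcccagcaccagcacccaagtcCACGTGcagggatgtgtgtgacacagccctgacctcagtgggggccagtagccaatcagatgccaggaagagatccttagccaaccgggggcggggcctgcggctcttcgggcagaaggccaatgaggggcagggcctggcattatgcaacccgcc
Cry1 E-box: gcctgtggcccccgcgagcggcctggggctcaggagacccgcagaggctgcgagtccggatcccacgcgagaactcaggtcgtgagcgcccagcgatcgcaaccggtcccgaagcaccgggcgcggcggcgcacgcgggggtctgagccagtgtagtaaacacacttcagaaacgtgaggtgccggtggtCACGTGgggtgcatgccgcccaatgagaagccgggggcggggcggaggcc
Arntl RORE core: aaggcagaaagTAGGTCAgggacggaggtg
The D-boxes of Per3 began 205 and 158 bases before the start, the E-box of Per1 166 and that of Cry1 60 before it, and the RORE core of Arntl at base 31 from the start, counting the start as base 1. Of 32851 promoter windows of the same length, 7.15% held the E-box, 1.06% a D-box, 6.45% an RORE core and 1.79% the cAMP response element anywhere in the 300 bases. Such a match is a description of letters and not a measured binding site.

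Values are the authors' deposited values, which behaved as estimated read counts scaled by 1 factor per library, though the scaling is not stated. On that reading, depth was 21.8 to 30.8 M reads (M, mega, estimated counts) in a library. In the same way, 1 read was worth 0.0295 to 0.0447 of a deposited value. The 12 defining genes of the proximal tubule summed to 24800 to 28600 and 23500 to 27200 in db/m at 26 and 35 weeks. In db/db Unx they summed to 16800 to 19600 and 15200 to 17100. At each age 8 of the 12 were called lower in db/db Unx and 0 higher, where 17.7% and 16.4% of all genes were lower. The skeletal muscle and urothelium genes summed to at most 13.6 in every library. Since these are whole-kidney samples, fewer cells of a type and less RNA per cell cannot be told apart. On the second principal component of all genes, db/db Unx 35-week replicates 3, 5 and 6 lay apart at 42.8, 26.7 and 20.1, with every other library at 9.2 or below.

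A single library stood apart in the clock genes, replicate 5 of the db/m mice at 35 weeks. Its values lay outside those of all 27 other libraries for 6 of the 10 clock genes, where 12.4% of all genes tested did so in this library (4.05% to 15.2% over the 28 libraries). Nr1d1 was 3.02 in it, against 90.4 ± 4.72 (SD, n = 5) in the other db/m libraries of 35 weeks, which makes it 29.9-fold lower. Dbp was 15.0 against 58.2 ± 13.7. Cry1 was 21.7 against 1.24 ± 1.27, Per2 30.4 against 6.84 ± 2.25 and Arntl 16.1 against 7.18 ± 2.75, and Cry2 was 46.7 against 30.5 ± 9.07. Nr1d1 and Dbp were thus low where Arntl, Per2 and Cry1 were high, while Clock (21.4), Npas2 (4.43), Per1 (8.76) and Per3 (13.9) lay inside the range of the other 5. Across genes, which are not independent, this library correlated at r = 0.989 with the mean of its own group, and the 28 libraries spanned 0.981 to 0.993.

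Of the accessory clock genes, a list of 31 of which 30 were tested, 10 lay outside all 27 others in the same library and the other 20 did not. Of all genes tested, 12.4% did so in this library. Nfil3, a repressor at D-boxes, was 33.2 against 8.80 ± 3.77 in the other 5 libraries of its group, and Bhlhe40, a repressor at E-boxes, was 155 against 66.3 ± 5.87. Cipc, which inhibits CLOCK, was 50.0 against 28.6 ± 3.60. Nr1d2, the paralog of Nr1d1, was 28.1 against 60.1 ± 7.55, and Ciart, a repressor of ARNTL and CLOCK, was 1.89 against 5.43 ± 2.97. These accessory genes were chosen for naming after their values were seen. Values without replicate 5 are given below beside the changes of the 10 clock genes that turned on it.

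**Figure D1:**
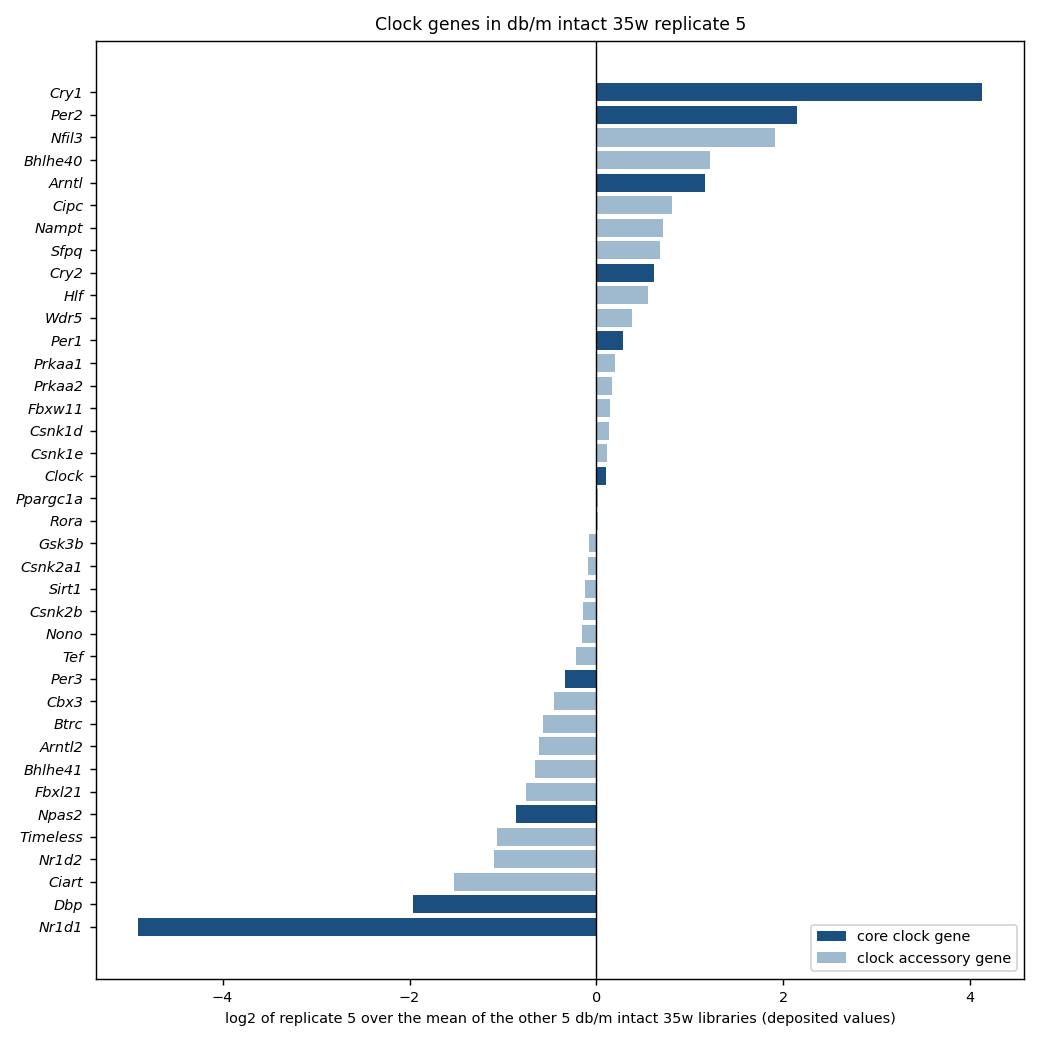
Log2 ratio of the deposited value in db/m intact 35-week replicate 5 to the mean of the other 5 libraries of its group, for the 10 core clock genes (dark bars) and 28 accessory clock genes (light bars). Cry1 (21.7 against 1.24) is at the top and Nr1d1 (3.02 against 90.4) at the bottom, with 1 library behind every bar and no error.

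Replicate 4 of the db/m mice at 26 weeks held the highest or lowest value of its group for 9 of the 10 clock genes. 45.7% of all genes did so in this library, where groups of 5 give each library a large share of extremes. Its Nr1d1 was 36.9, against 70.1, 70.1, 84.8 and 71.7 in the other 4, and its Dbp was 82.2, against 133 to 191. Per2 at 26.2, Cry1 at 4.40 and Arntl at 3.73 were the highest of the group, and these 5 genes deviated in the directions of replicate 5 of the older controls, at a smaller size. Cry2 and Per1 (5.45) were the lowest of the group, which replicate 5 did not share.

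**Figure D2:**
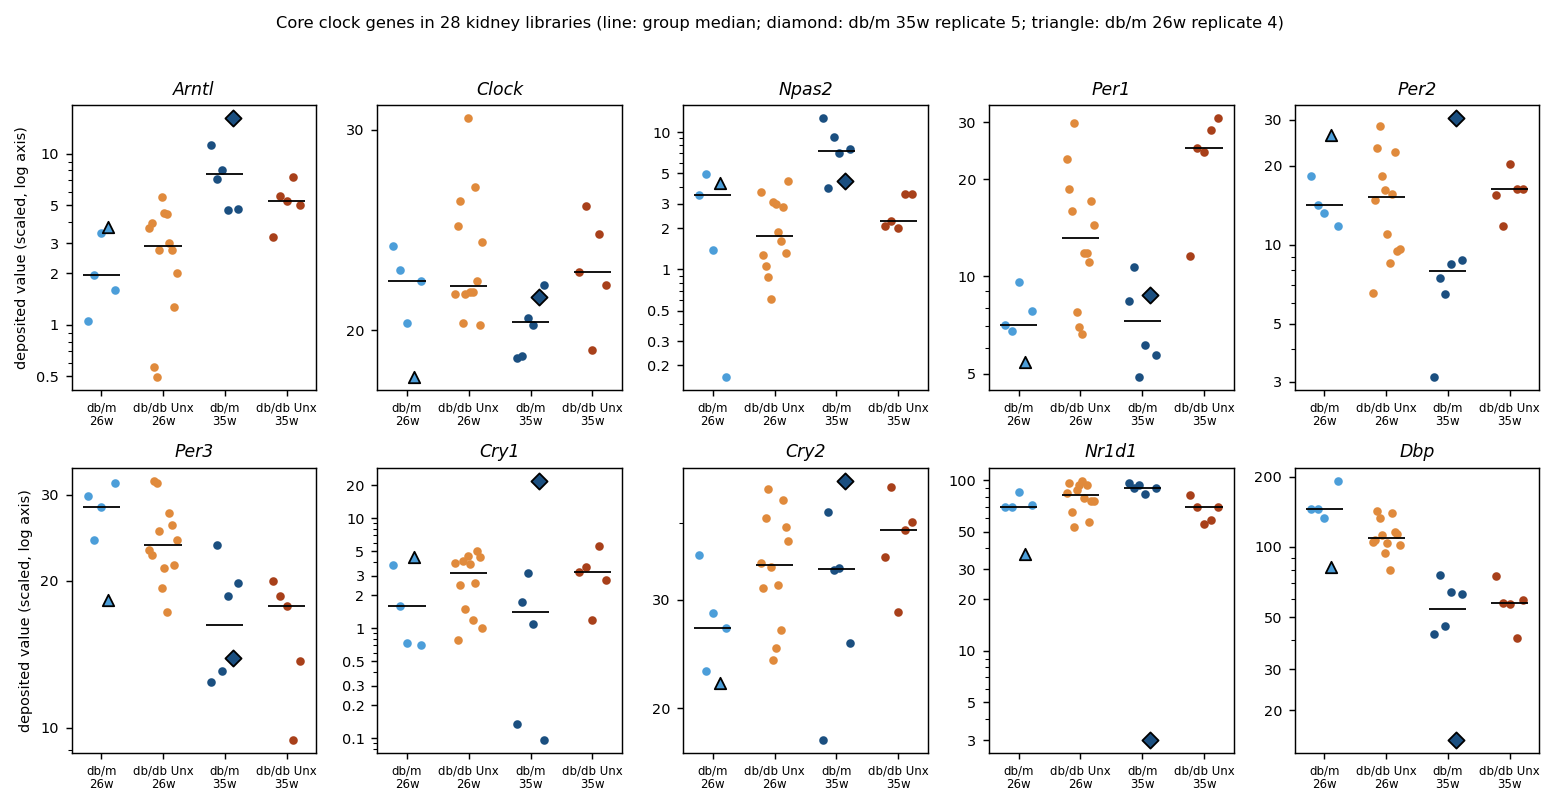
Deposited value of each of the 10 clock genes (log axis) in 28 libraries, in 4 groups of 5, 12, 6 and 5 libraries; each point is 1 library and the line is the group median. The diamond, db/m 35-week replicate 5, lies above all other points for Arntl, Per2, Cry1 and Cry2 and below them for Nr1d1 and Dbp.

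Against this background few of the clock genes passed in the disease comparisons, whereas with age their share lay above that of all genes. Shares of 10 genes are coarse. In db/db Unx against db/m at 26 weeks, 1 of the 10 was called (Per1, higher), where 34.9% of all genes tested were called (17.2% higher, 17.7% lower). At 35 weeks 2 of the 10 were called (Per1 higher, Npas2 lower), where 32.3% of all genes were (15.9% higher, 16.4% lower). From 26 to 35 weeks 4 of the 10 were called in db/m (Arntl and Npas2 higher, Per3 and Dbp lower), where 7.40% of all genes were (2.73% higher, 4.68% lower). In db/db Unx 2 of the 10 were called (Per3 and Dbp lower), where 11.3% were (5.16% higher, 6.14% lower). The groups did not overlap for 0 of the 10 in the disease comparison at 26 weeks (12.8% of all genes), 2 at 35 weeks (18.1%), 2 with age in db/m (4.99%) and 1 with age in db/db Unx (1.34%). None of the 10 differed between the ages in its disease comparison by limma's interaction test, where 0.548% of genes did. 1 of the 10, Npas2, had an unadjusted p below 0.05 there. The median log2 change of the 10 was 0.14 and 0.27 in the disease comparisons at 26 and 35 weeks, 0.14 over age in db/db Unx and -0.04 in db/m, beside 0.02, 0.012, 0.005 and 0.015 for all genes. The disease comparisons use the same libraries as the age comparisons, so that a group that is high or low enters both.

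**Figure D3:**
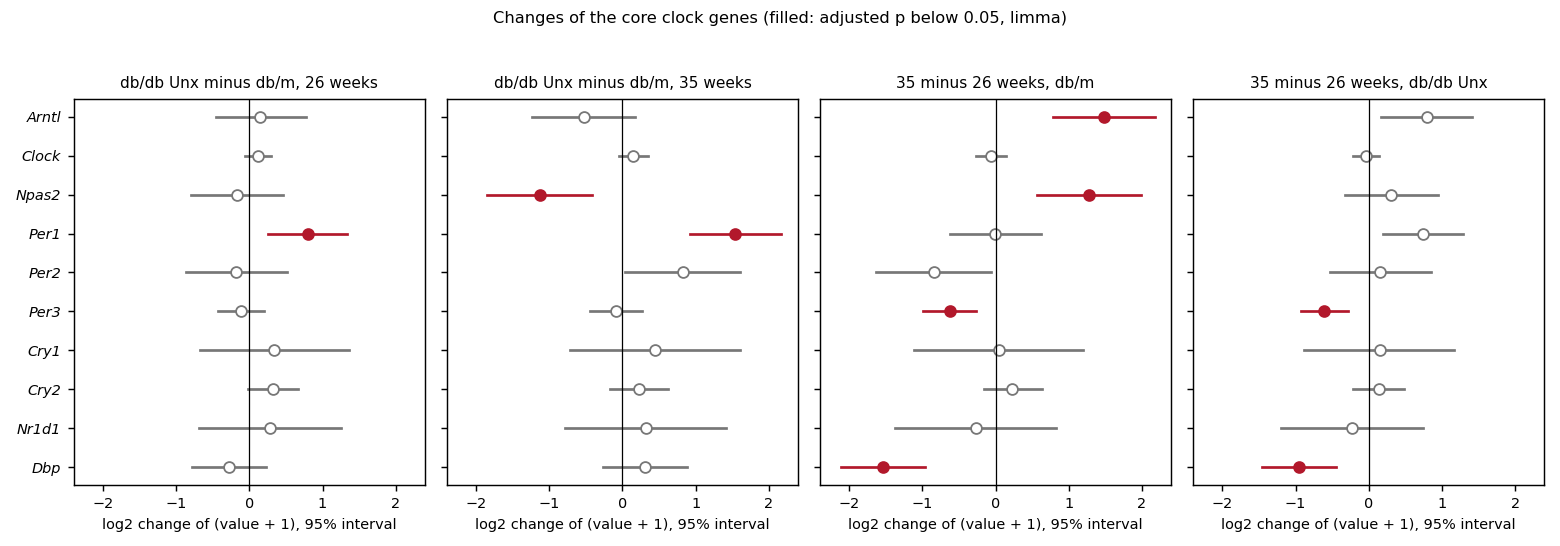
Log2 change of (value + 1) for each clock gene in the 4 comparisons, with 95% intervals from limma; filled red points passed an adjusted p of 0.05. Per1 is the 1 gene filled in both disease comparisons, and Dbp and Per3 are filled, to the left of 0, in both age comparisons.

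Per1, a repressor of the loop and a fast-responding gene (ENSMUSG00000020893, GRCm38 chromosome 11, 69095217 to 69109960, plus strand), was higher in db/db Unx kidneys at both ages. At 26 weeks the 5 db/m libraries held 7.07, 6.76, 9.60, 5.45 and 7.80, and the 12 db/db Unx libraries ranged from 6.63 through a median of 13.1 to 29.9. The groups overlapped, with 3 db/db Unx libraries (7.78, 6.95 and 6.63) inside the range of the controls. The log2 change was 0.80 ± 0.27 (SE, limma, adjusted p = 0.0205). Without db/m replicate 4, the lowest control, it was 0.71 and no longer passed (limma, adjusted p = 0.0673).

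At 35 weeks Per1 was 4.89 to 10.7 in the 6 db/m libraries, with a median of 7.26, and 11.6, 24.9, 24.2, 28.4 and 30.8 in the 5 db/db Unx libraries. The groups did not overlap, and db/db Unx replicate 1 at 11.6 lay close to the highest control. The log2 change was 1.54 ± 0.30 (limma, adjusted p = 0.00022), and it was 1.77 without that replicate. With the 3 libraries apart on the second component left out together, 2 db/db Unx libraries remained and the change was 1.14 (limma, adjusted p = 0.0562). The change at 35 weeks exceeded that at 26 weeks by 0.74, with a 95% interval of -0.08 to 1.57. Within db/db Unx, Per1 was 0.74 ± 0.27 higher at 35 than at 26 weeks (limma, adjusted p = 0.0722). It passed when db/db Unx 26-week replicate 1 or 4, or 35-week replicate 1, was left out (limma, adjusted p = 0.0453, 0.0249 and 0.0166).

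Immediate early genes, which answer to stimuli within minutes to hours as Per1 can, were higher in the same disease comparisons. Of 12 tested immediate early genes, 5 were higher and 0 lower in db/db Unx at 26 weeks, 12 higher and 0 lower at 35 weeks, and 8 higher and 0 lower with age in db/db Unx. Of all genes, 17.2%, 15.9% and 5.16% were called higher in these 3 comparisons. With age in db/m 0 of 12 passed by limma (1 at an unadjusted p below 0.05). Klf6 changed by 0.71 ± 0.11 and 1.20 ± 0.13 at 26 and 35 weeks, Jun by 0.77 ± 0.12 and 1.12 ± 0.14, Btg2 by 0.72 ± 0.12 and 0.78 ± 0.13, and Egr1, called at 35 weeks, by 1.40 ± 0.21. Egr1 was the 1 gene of this list whose disease comparison differed between the ages, by 1.22 ± 0.29 (limma, adjusted p = 0.0392). The summed value of the list was 146 to 218 over the db/m libraries of both ages and 199 to 434 over the db/db Unx libraries.

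Of 12 genes of the glucocorticoid response, 5 were higher and 2 lower in db/db Unx at 26 weeks and 7 higher and 2 lower at 35 weeks, beside 34.9% and 32.3% of all genes called in either direction. Mt1 and Mt2, metallothioneins that metals also induce, changed by 1.69 ± 0.10 and 1.42 ± 0.10 at 26 weeks and by 1.76 ± 0.11 and 1.74 ± 0.12 at 35 weeks. Cebpd, a transcription factor of inflammation and adipocyte formation, was 8.29 ± 1.63 and 7.76 ± 1.63 in db/m at 26 and 35 weeks, and 10.8 ± 3.21 and 30.4 ± 14.8 in db/db Unx. Its change at 35 weeks was 1.71 ± 0.25 (limma, adjusted p = 2.85e-06). Hsd11b1, which regenerates active glucocorticoid, changed by -2.62 ± 0.13 and -2.27 ± 0.15. The glucocorticoid receptor gene Nr3c1 was also lower, by -0.44 ± 0.07 and -0.38 ± 0.08, and Fkbp5, a standard target of the receptor, was higher at 35 weeks by 0.87 ± 0.26 (limma, adjusted p = 0.013). Nr3c1 and Fkbp5 were chosen for naming after their values were seen. Markers of injured tubule, such as Havcr1 and Lcn2, were higher for 11 of 12 genes at 26 weeks and 12 of 12 at 35 weeks, with sums of 1220 to 1480 in db/m and 3370 to 9750 in db/db Unx. Macrophage markers were higher for 0 of 6 and lower for 2 of 6 at 26 weeks and higher for 3 of 6 at 35 weeks, with sums of 113 to 194 in db/m, 91.8 to 186 in db/db Unx at 26 weeks and 127 to 513 at 35 weeks. Of all genes, 17.2% were called higher and 17.7% lower at 26 weeks, and 15.9% and 16.4% at 35 weeks. The part of these lists in the Per1 result was not tested.

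Dbp, a transcription factor of the PAR bZIP family and one of the strongest rhythmic outputs of the clock (ENSMUSG00000059824, chromosome 7, 45705088 to 45710203, plus strand), was lower at 35 than at 26 weeks in both genotypes. In db/m it was 146, 146, 133, 82.2 and 191 at 26 weeks, and from 15.0 through a median of 54.3 to 75.6 at 35 weeks. The groups did not overlap, and the change was -1.54 ± 0.28 (limma, adjusted p = 0.00114). Without replicate 5 of the older group it was -1.23 (limma, adjusted p = 0.000988), and in a fit of these 2 groups alone the adjusted p was 0.0599. Among db/db Unx libraries Dbp ranged from 79.5 through 110 to 142 at 26 weeks and was 75.0, 57.7, 56.9, 40.6 and 59.4 at 35 weeks. These groups did not overlap either, and the change was -0.95 ± 0.24 (limma, adjusted p = 0.0129). It no longer passed without db/db Unx 35-week replicate 5, at -0.83 (limma, adjusted p = 0.0702), or without replicates 3, 5 and 6, at -0.75 (limma, adjusted p = 0.676).

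The age changes of Dbp in the 2 genotypes differed by 0.59, with a 95% interval of -0.18 to 1.35, and by 0.28 ± 0.26 without db/m 35-week replicate 5. Dbp did not pass in either disease comparison, at -0.28 ± 0.24 and 0.31 ± 0.28, and the change at 35 weeks was 0.00 ± 0.20 without db/m replicate 5. With db/m 26-week replicate 4 and 35-week replicate 5 both left out, an alternative chosen after seeing the data, it was lower in db/db Unx at 26 weeks by -0.46 ± 0.15 (limma, adjusted p = 0.0247). Exons of Dbp share 539 bases, 18.0% of its exon length, with Sphk2 on the opposite strand, and the sources used here do not state that strand was used in counting. Sphk2 changed by 0.05 ± 0.09 and 0.01 ± 0.08 with age in db/m and db/db Unx, and was 43.7 in db/m 35-week replicate 5, inside its group's range of 42.1 to 55.4.

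Per3, a period gene that follows the loop closely and is less needed for rhythm than Per1 and Per2 (ENSMUSG00000028957, chromosome 4, 151003652 to 151044665, minus strand), fell with Dbp. It was 29.9, 24.3, 28.4, 18.3 and 31.7 in db/m at 26 weeks and 12.4 to 23.7, with a median of 16.3, at 35 weeks. The groups overlapped through replicate 4 of the younger group. The change was -0.63 ± 0.18 (limma, adjusted p = 0.0221). It no longer passed without any 1 of 26-week replicates 1, 3 or 5 or 35-week replicates 3 or 5, with adjusted p from 0.0507 to 0.0801 by limma. Per3 in db/db Unx ranged from 17.3 through 23.7 to 32.0 at 26 weeks and was 20.0, 18.6, 17.8, 9.46 and 13.7 at 35 weeks, a change of -0.61 ± 0.15 (limma, adjusted p = 0.0101). Without replicate 5 of the older group, the lowest, it was -0.44 (limma, adjusted p = 0.0809), and without replicates 3, 5 and 6 it was -0.30. The 2 age changes differed by 0.03, with an interval of -0.45 to 0.50, and by -0.02 without db/m 35-week replicate 5. In the disease comparisons Per3 changed by -0.12 ± 0.15 and -0.09 ± 0.18, and neither passed.

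Arntl encodes the activator without which the loop stops (ENSMUSG00000055116, chromosome 7, 113207465 to 113314126, plus strand). It was 1.05, 1.95, 3.46, 3.73 and 1.61 in db/m at 26 weeks and 4.70 to 16.1, with a median of 7.57, at 35 weeks. All 6 older libraries lay above all 5 younger ones. The change was 1.48 ± 0.34 (limma, adjusted p = 0.00664), and 1.29 without replicate 5 (limma, adjusted p = 0.0209). Arntl in db/db Unx ranged from 0.498 through 2.87 to 5.62 at 26 weeks and was 3.26, 5.64, 5.28, 7.34 and 4.99 at 35 weeks, a difference of 0.79 ± 0.30 that did not pass (limma, adjusted p = 0.0873). The 2 age changes differed by -0.69, with an interval of -1.63 to 0.25. Arntl did not pass in the disease comparisons, at 0.15 ± 0.30 and -0.53 ± 0.34, and at 35 weeks it was -0.35 without replicate 5.

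Npas2 encodes a partner of ARNTL that can stand in for CLOCK (ENSMUSG00000026077, chromosome 1, 39193731 to 39363236, plus strand). It was 3.47, 4.98, 1.39, 4.23 and 0.165 in db/m at 26 weeks, and 12.6, 3.90, 9.17, 7.06, 4.43 and 7.48 at 35 weeks. The groups overlapped in part, and the change was 1.27 ± 0.35 (limma, adjusted p = 0.0217). It no longer passed without 26-week replicate 3 or 5 or 35-week replicate 3 (limma, adjusted p = 0.0587, 0.0981 and 0.051), or in a fit of the 2 groups alone (limma, adjusted p = 0.106). Npas2 in db/db Unx ranged from 0.604 through 1.74 to 4.41 at 26 weeks and was 2.07, 2.26, 1.99, 3.56 and 3.57 at 35 weeks, a difference of 0.31 ± 0.31.

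At 35 weeks Npas2 was lower in all 5 db/db Unx libraries than in all 6 db/m libraries, by -1.13 ± 0.35 (limma, adjusted p = 0.0123). The lowest control (3.90) and the highest db/db Unx library (3.57) were close. With a pseudocount of 0.1 the adjusted p was 0.0612, and without db/db Unx replicates 3, 5 and 6 it was 0.0623 by limma. At 26 weeks the difference was -0.17 ± 0.31. The disease comparisons of the 2 ages differed by -0.96, with an interval of -1.91 to -0.01 (limma, adjusted p = 0.391).

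Clock, whose protein is the usual partner of ARNTL and whose transcript is known to cycle little, was the steadiest of the 10 (ENSMUSG00000029238, chromosome 5, 76209868 to 76304792, minus strand). Its means were 21.4 ± 2.14 and 20.3 ± 1.23 in db/m at 26 and 35 weeks and 23.4 ± 3.11 and 22.7 ± 2.50 in db/db Unx. All 28 libraries lay between 18.2 and 30.7. The 4 changes were between -0.07 and 0.15, and the widest of their 95% intervals ran from -0.05 to 0.35 at 35 weeks and from -0.27 to 0.14 with age in db/m.

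Per2, the period gene most needed for rhythm (ENSMUSG00000055866, chromosome 1, 91415982 to 91459324, minus strand), had a result that turned on replicate 5. At 35 weeks the db/m libraries held 3.13, 7.45, 6.47, 8.42, 30.4 and 8.71, and the db/db Unx libraries 15.5, 11.8, 20.4, 16.4 and 16.4. 5 of the 6 controls lay below all 5 db/db Unx libraries, and replicate 5 lay above them. The change was 0.83 ± 0.38 with replicate 5 (limma, adjusted p = 0.102) and 1.17 ± 0.32 without it (limma, adjusted p = 0.00555). At 26 weeks Per2 was 18.3, 14.2, 13.2, 26.2 and 11.8 in db/m and 6.55 through 15.2 to 28.5 in db/db Unx, a difference of -0.18 ± 0.33. With age it changed in db/m by -0.84 ± 0.38 (limma, adjusted p = 0.197), or by -1.19 without replicate 5 (limma, adjusted p = 0.0259). With db/m 26-week replicate 4 left out as well it was -1.02 and did not pass (limma, adjusted p = 0.0815). In db/db Unx Per2 changed with age by 0.16 ± 0.33. The 2 disease comparisons differed by 1.00, with an interval of -0.04 to 2.05.

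Cry1, the stronger repressor of the 2 cryptochromes (ENSMUSG00000020038, chromosome 10, 85131700 to 85185064, minus strand), was low and uneven. In db/m it was 3.73, 1.60, 0.728, 4.40 and 0.701 at 26 weeks and 0.134, 1.73, 3.15, 1.09, 21.7 and 0.0972 at 35 weeks. In db/db Unx it ranged from 0.783 through 3.19 to 5.06 at 26 weeks and was 3.26, 3.57, 1.18, 5.57 and 2.77 at 35 weeks. None of its changes passed (0.34 ± 0.50 and 0.44 ± 0.56 for disease, 0.04 ± 0.56 and 0.15 ± 0.50 for age in db/m and db/db Unx). Without replicate 5 of the db/m mice the disease change at 35 weeks was 1.03 (limma, adjusted p = 0.0566). With db/m 26-week replicate 4 out too, chosen after seeing the data, it stayed at 1.03 (limma, adjusted p = 0.0474). That library is not part of this comparison and enters it through the shared estimate of the spread alone. The age change in db/m had the opposite sign without replicate 5, at -0.55 ± 0.41.

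Cry2 (ENSMUSG00000068742, chromosome 2, 92403646 to 92434043, minus strand), the cryptochrome with the flatter rhythm, was 27.2 ± 5.39 and 33.2 ± 10.5 in db/m at 26 and 35 weeks and 34.5 ± 7.04 and 37.7 ± 6.30 in db/db Unx. The groups overlapped in every comparison and no change passed. The largest was 0.32 ± 0.17 at 26 weeks, with an interval of -0.02 to 0.67. At 35 weeks the disease change was 0.23 ± 0.19, and 0.34 ± 0.19 without db/m replicate 5.

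Nr1d1, the repressor of Arntl and Npas2 (ENSMUSG00000020889, chromosome 11, 98767932 to 98775333, minus strand), was 70.1, 70.1, 84.8, 36.9 and 71.7 in db/m at 26 weeks and 95.7, 89.4, 93.4, 83.2, 3.02 and 90.2 at 35 weeks. In db/db Unx it ranged from 53.3 through 81.3 to 98.6 at 26 weeks and was 82.4, 70.0, 55.3, 58.6 and 69.8 at 35 weeks. Replicate 5 aside, the 5 older controls lay within 83.2 to 95.7, above all 5 db/db Unx libraries of that age. The disease change at 35 weeks was 0.32 ± 0.53 with replicate 5 and had the opposite sign, -0.43, without it (limma, adjusted p = 0.0726). With db/m 26-week replicate 4 left out as well, a setting chosen after seeing the data, its adjusted p was 0.0183 by limma. That library is not part of this comparison: the change stayed at -0.43, and its SE fell from 0.18 to 0.14. The 4 groups share 1 estimate of the spread, so leaving out libraries that stand apart lowers p, and nothing is concluded from it. The age change in db/m was -0.27 ± 0.53, and 0.48 ± 0.18 without replicate 5 (limma, adjusted p = 0.133). No change of Nr1d1 passed with all libraries. Its exons share 263 bases, 8.55% of their length, with Thra on the opposite strand. Thra was 21.6 in replicate 5, the lowest of a group that reached 35.1.

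Most of the clock genes spread widely between libraries of a group. The standard deviation of log2 values within groups was 0.94 for Cry1, 0.89 for Nr1d1, 0.64 for Per2, 0.62 for Npas2 and 0.61 for Arntl, each wider than for at least 98.9% of all genes tested. Low genes vary more, but among genes with means within 1.5-fold of theirs these 5 were still wider than 98.4% or more. Per1 at 0.52 and Dbp at 0.46 were wider than 97.2% and 94.2% of all genes. Cry2 at 0.33 was wider than 77.9%, Per3 at 0.32 than 75.4% and Clock at 0.15 than 28.5%. Among genes of like mean, Per1, Dbp, Cry2, Per3 and Clock were wider than 98.4%, 99.2%, 97.3%, 94.8% and 17.0%. The spread of 4 genes in db/m at 35 weeks was over 1.5 times wider with replicate 5 than without it. For Nr1d1 it was 1.84 with that library and 0.08 without it, and for Cry1 it was 1.62 and 0.83. For Per2 it was 0.96 and 0.51, and for Dbp 0.82 and 0.34. The spreads over all groups and the shares of genes above include that library, and those without it were not computed. In db/m at 26 weeks and db/db Unx at 26 and 35 weeks the spread was 0.454, 0.293 and 0.225 for Nr1d1. For Dbp it was 0.441, 0.237 and 0.311 there. The high rank of Nr1d1 thus rested largely on 1 library. Per 1000 bases of exon and averaged over the 28 libraries, Dbp was highest at 31.5 ± 13.6 and Nr1d1 next at 24.2 ± 6.76. This order held at 26 weeks, where Dbp was 46.7 ± 13.0 and 37.6 ± 6.15 (db/m, then db/db Unx) beside Nr1d1 at 21.7 ± 5.77 and 26.0 ± 4.97, but at 35 weeks Dbp was 17.0 ± 7.18 and 19.4 ± 4.08 beside Nr1d1 at 24.6 ± 11.7 and 21.8 ± 3.48. Cry2 followed at 5.30 ± 1.24. Per2 (2.52 ± 1.18), Per1 (2.39 ± 1.43) and Per3 (2.25 ± 0.639) were alike over the 28 libraries, but not within every group. In db/m at 26 weeks Per1 was 1.30 ± 0.271, beside Per2 at 2.86 ± 0.99 and Per3 at 2.76 ± 0.557. In db/db Unx at 35 weeks Per1 was 4.26 ± 1.32, beside Per2 at 2.75 ± 0.526 and Per3 at 1.66 ± 0.448. Clock was at 1.62 ± 0.198, and Cry1 (0.971 ± 1.18), Npas2 (0.731 ± 0.580) and Arntl (0.595 ± 0.443) were lowest and overlapped.

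**Figure D4:**
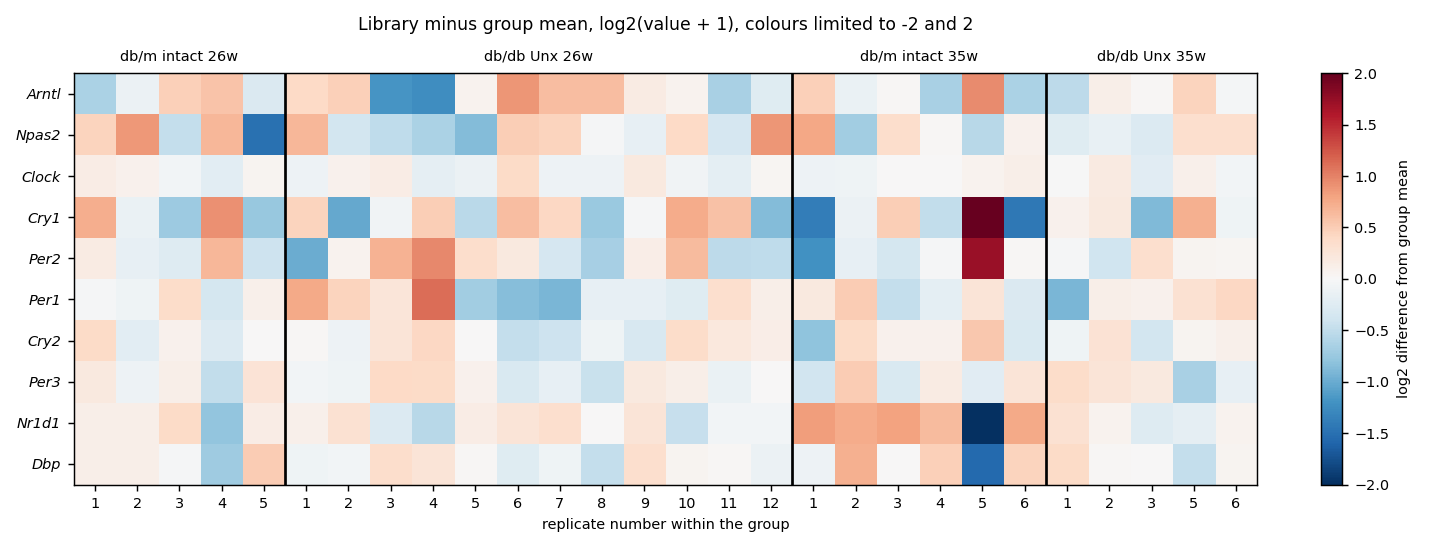
Log2(value + 1) of each clock gene (rows) in each of 28 libraries (columns, numbered by replicate within their group) minus the mean of its group; red is above and blue below the group mean, and colours stop at -2 and 2. The column of db/m 35-week replicate 5 is darkest, with Nr1d1 at -3.75 and Cry1 at 2.94. The column of db/m 26-week replicate 4 shares its sign for 6 of the 10 genes, with Clock, Npas2, Per1 and Cry2 opposite.

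Some pairs of clock genes were correlated from library to library within groups. With group means removed, 45 pairs of the 10 genes were correlated over 28 libraries, and p-values came from 100000 permutations of the libraries within groups, adjusted over the 45. 5 pairs passed by Pearson's r, 1 positive and 4 negative. Per3 and Dbp rose and fell together, with r = 0.71 and rho = 0.82 (permutation p = 1e-05 for both, the smallest that 100000 permutations give, adjusted 0.00045 and 0.000225). The r was 0.65 without the 2 libraries farthest from the median in Per3, and 0.90 without db/m 35-week replicate 5, in which Dbp was 15.0 and Per3 13.9. Arntl ran opposite to both, with r = -0.67 and rho = -0.79 against Dbp (permutation p = 2e-05 and 1e-05, adjusted 0.00045 and 0.000225) and r = -0.67 and rho = -0.66 against Per3 (permutation p = 7e-05 and 0.00028, adjusted 0.00105 and 0.0042). Without the 2 farthest libraries r was -0.71 and -0.59. Npas2 against Per3 gave r = -0.53 and rho = -0.54 (permutation p = 0.00374 and 0.00323, adjusted 0.0337 and 0.0363), and -0.55 without 2 libraries.

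Per2 and Nr1d1 gave r = -0.72 (permutation p = 0.00055, adjusted 0.00619), rho = -0.48 (adjusted permutation p = 0.0965), and r = -0.58 without the 2 farthest libraries, 1 of which was db/m 35-week replicate 5. Without that replicate alone it was -0.56 (adjusted permutation p = 0.03), and 7 of the 45 pairs passed. The pairs that passed there in addition were Arntl with Cry2 (r = -0.58) and Npas2 with Dbp (r = -0.59). In the 12 db/db Unx libraries of 26 weeks alone, 4 pairs passed by r. Per3 and Dbp gave r = 0.92 and rho = 0.87 (adjusted permutation p = 0.00225 and 0.01), and 0.85 without the 2 farthest. Cry2 and Nr1d1 gave r = -0.89 and rho = -0.94 (adjusted permutation p = 0.00225 and 0.0018), and -0.91 without the 2 farthest. Arntl gave r = -0.79 with Cry2 and -0.77 with Per3, and without the 2 farthest libraries, replicates 3 and 4 with the lowest Arntl, these were -0.73 and -0.47. Arntl with Nr1d1 passed by rho alone, at 0.80 (adjusted permutation p = 0.0313), with r = 0.75 (adjusted permutation p = 0.0561) and 0.50 without the 2 farthest. Over the 28 libraries this pair gave r = -0.24 and rho = -0.02. In the 6 db/m libraries of 35 weeks 0 of 45 pairs passed by the exact permutation test (3 at an unadjusted p below 0.05), and Arntl with Dbp had r = -0.86 (adjusted exact permutation p = 0.354). Per1 passed with none of the other 9 genes over the 28 libraries by Pearson's r, and its strongest r was 0.44, with Cry2 (adjusted permutation p = 0.117).

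**Figure D5:**
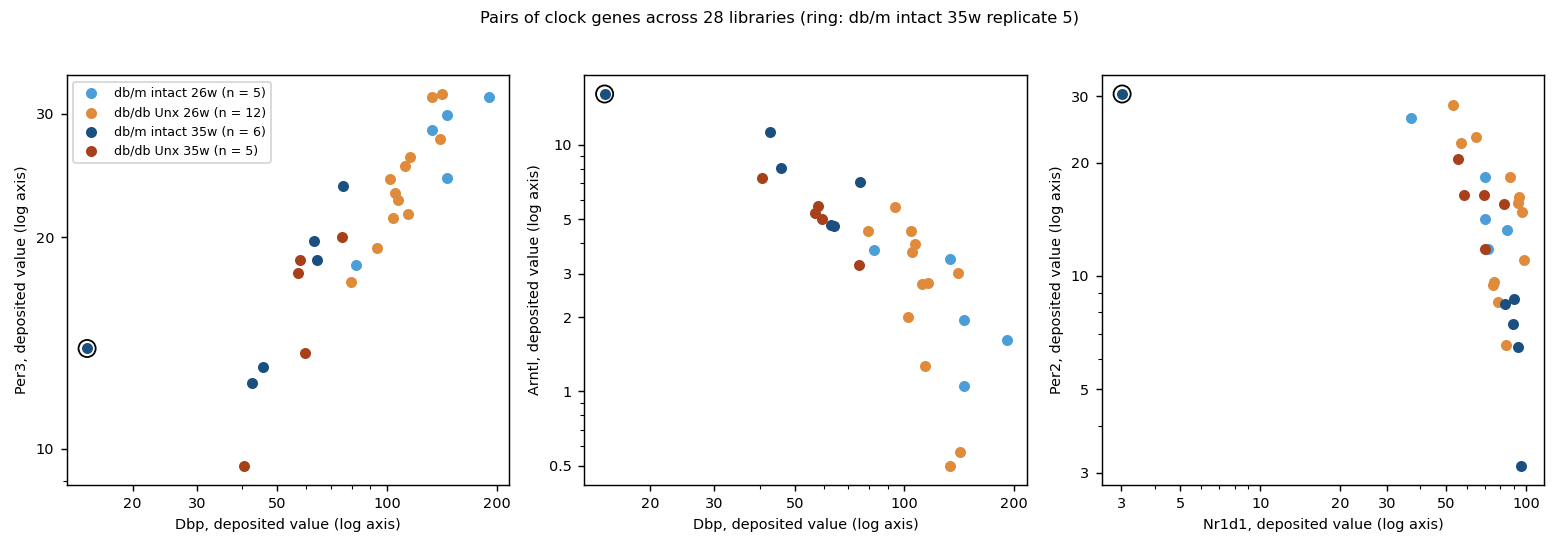
Deposited values (log axes) of Per3 against Dbp, Arntl against Dbp and Per2 against Nr1d1 in 28 libraries, coloured by group; the ring marks db/m intact 35-week replicate 5. Per3 climbs and Arntl falls as Dbp climbs from 15.0 to 191, with the 35-week groups to the left of the 26-week groups, and the ring lies alone at the left of each panel.

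The genes most like Arntl and Dbp were taken from 6654 well-expressed genes by r of group-centred values over the 28 libraries, as a description without a test. Highest with Dbp were Nr1d2 (0.80), Mettl27 (0.79), Kxd1 (0.78), Tmem106a (0.76) and Renbp (0.76), and lowest were Nop56 and Zfp410 (both -0.77), Txnrd1 and Slc16a5 (both -0.70) and Ppp2cb (-0.67). Highest with Arntl were Rpl7l1 (0.69), Ndrg1 (0.68), Bag5 (0.63), Ski (0.62) and Itih5 (0.62), and lowest were Kxd1 (-0.71), Tef (-0.66), Sptssa (-0.65), Mfsd5 (-0.62) and Wdr83 (-0.61). Tef, a PAR bZIP factor like DBP, and Kxd1 were thus opposite to Arntl. Without db/m 35-week replicate 5 the genes nearest to Dbp were Pklr (0.78), Tef (0.74) and Kxd1 (0.73), with Ndrg1 at -0.78. Nr1d2, Mettl27, Tmem106a and Renbp left the highest 5 with Dbp, and Nop56, Txnrd1, Slc16a5 and Ppp2cb left the lowest 5. With Arntl, Bag5, Ski and Itih5 left the highest 5, and Mfsd5 and Wdr83 the lowest 5. The places of these genes had thus rested on that library. Kxd1 was lowest with Arntl again at -0.66, and in the 12 db/db Unx libraries of 26 weeks alone at -0.92.

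Of the accessory clock genes, 7 and 6 of 30 were called in the disease comparisons at 26 and 35 weeks, beside 34.9% and 32.3% of all genes. At 26 weeks 3 of 30 were higher and 4 lower in db/db Unx, and at 35 weeks 4 were higher and 2 lower, with medians of -0.01 and 0.02. Ppargc1a, a coactivator of energy metabolism, was higher at both ages by 0.37 ± 0.07 and 0.51 ± 0.08. The groups did not overlap at either age. Csnk1e, a kinase that marks PER proteins for breakdown, was higher by 0.45 ± 0.12 and 0.46 ± 0.13. Nampt, the rhythmic enzyme of NAD synthesis, was higher at 35 weeks by 0.55 ± 0.11. Fbxw11, a ligase subunit for PER proteins, was lower at 26 weeks by -0.30 ± 0.07, and Bhlhe41, an E-box repressor, was higher there by 0.68 ± 0.20.

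With age, 4 of 30 accessory genes were higher and 1 lower in db/db Unx, and 1 higher and 2 lower in db/m, beside 11.3% and 7.40% of all genes called in either direction. Ciart, named after its values were seen, was 17.3 ± 7.11 and 4.84 ± 3.02 in db/m at 26 and 35 weeks, a change of -1.69 ± 0.35 (limma, adjusted p = 0.00314), and 11.7 ± 5.00 and 10.4 ± 1.83 in db/db Unx, a change of -0.06 ± 0.31. The difference between these, 1.64 ± 0.46, did not pass over all genes (limma, adjusted p = 0.0952). In the 18 clock output genes of kidney and liver, 7 were higher and 3 lower at 26 weeks, 9 higher and 2 lower at 35 weeks, 3 higher and 0 lower with age in db/db Unx, and 2 higher and 3 lower in db/m. Of all genes, 34.9%, 32.3%, 11.3% and 7.40% were called in these 4 comparisons. Cdkn1a, a cell cycle inhibitor that injury and p53 also induce, was higher by 2.89 ± 0.15 and 2.49 ± 0.17. Por, the electron donor of cytochrome P450 enzymes, was lower by -0.50 ± 0.07 and -0.38 ± 0.07. Slc6a6, the taurine transporter, was higher by 0.47 ± 0.06 and 0.51 ± 0.07, Lgals4 by 1.06 ± 0.15 and 0.75 ± 0.17, the sodium channel subunit Scnn1a by 0.56 ± 0.09 and 0.60 ± 0.10, and the sodium pump subunit Atp1b1 by 0.18 ± 0.04 and 0.24 ± 0.05. In limma's test of a difference between the ages' disease comparisons, 0 of the 18 output genes and 0 of the 30 accessory genes passed (4 and 3 at an unadjusted p below 0.05).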

How the data were processed

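The tool named is DRAGEN and the build GRCm38 (mm10), per the submitters' processing notes. For the authors' annotation and scaling nothing is given in the sources used here. Per the labels, libraries were made with a Nextera XT kit. The deposited signal values behaved as estimated counts times 1 factor per library: 86.4% to 89.0% of low values (up to 100 reads) lay within 0.1 of a whole multiple of 1 step, too few for a count model. Gene symbols and coordinates came from GENCODE M21. The 13495 genes that reached 1 in 5 or more libraries were fitted as log2(value + 1), which understates changes of low genes, with limma 3.58.1 in R 4.3.3: 4 group means, a trend, robust moderation, two-sided tests, Benjamini-Hochberg adjustment over all genes and calls at 0.05. Correlations and their permutations were computed with numpy 2.4.6, with the ranks for rho from scipy 1.17.1. The fit was tested on simulated data. The members and the lists were chosen with earlier results of these data known. Beyond the 10 members, genes were named by smallest adjusted p in either disease comparison (6 for each clock list, 4 for each other function list) and by correlation with Arntl and Dbp (5 at each end), or after seeing values where stated. Some genes are not reported here. Alternatives covered pseudocounts, filters, scaling, the model, the replicate number as a block, and leaving out libraries.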

Additional observations from a re-analysis of the deposited data

Results flagged for a closer look

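In groups of 4 to 10 libraries, the highest or lowest library was compared with its nearest neighbour by Dixon's criterion, for the 10 clock genes in 3 groups (30 combinations); the 12 db/db Unx libraries of 26 weeks were too many for it. A library stood apart in 4 of the 30, and chance marks about 1 in 20. Nr1d1 was 3.02 in db/m 35-week replicate 5, and Dbp was 15.0 in the same library. Nr1d1 was 36.9 in db/m 26-week replicate 4. That library deviated from its group in the same direction as db/m 35-week replicate 5 for 6 of the 10 clock genes. Clock, Npas2, Per1 and Cry2 went in opposite directions, so the agreement was close to an even split. The share over all genes was not computed. Per1 was 11.6 in db/db Unx 35-week replicate 1, below 24.2 to 30.8 in the other 4. Whether these libraries have anything in common was not tested.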

How the results depend on the processing

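Under settings other than leaving out 1 library, 507 recomputed member changes were counted. Of these, 477 kept their direction and their side of the threshold. A further 11 no longer passed, 5 newly passed and 14 changed sign, and the cause was not tested. The interaction changes of Clock, Cry1, Cry2 and Nr1d1 were left out of these counts and of the sign turns below. Replicate numbers did not pair the libraries (30 same-numbered pairs, median r -0.022, 0 above 0.1). With them as a block, genes called were 483 for age in db/db Unx and 29 for the interaction, members called with age in db/db Unx were 0 (Per3 adjusted p 0.0734, Dbp 0.115, limma), and values with another sign were 0.04 (Per2, disease at 26 weeks), 0.06 (Per1, age in db/m) and -0.06 (Per3, interaction). Members called in disease at 35 weeks were 1 at a pseudocount of 0.1 and 0 without db/db Unx replicates 3, 5 and 6. They were 1 with a filter at 5, which Npas2 did not pass, so that it was not tested there. With both db/m libraries out, a setting chosen after seeing the data, they were 5. With age in db/m members called were 2 when only those groups were fitted. Without replicates 3, 5 and 6, genes called were 2407 for disease at 35 weeks, 8 for age in db/db Unx (0 members) and 0 for the interaction (limma), and the signs turned for Per3 in disease at 35 weeks (0.22) and for Clock (0.05) and Per2 (-0.06) with age in db/db Unx. With both db/m libraries out, genes called were 479 for age in db/m and 19 for the interaction, Nr1d1 was -0.43 (disease, 35 weeks) and 0.28 (age, db/m), and Cry1 -0.32 (age, db/m). Cry1 with age in db/m was also -0.38 (pseudocount 0.1), -0.01 (quantile normalization) and -0.14 (array weights), Per1 there 0.00 (pseudocount 5), and Per3 in the interaction -0.08 (array weights). Interaction calls were 41 without trend or robust moderation and 178 with array weights. Leaving out each library in turn, members called ranged from 0 to 1 and 2 to 3 in disease at 26 and 35 weeks, 0 to 3 with age in db/db Unx and 2 to 4 in db/m. Genes called ranged from 4178 to 4758, 3751 to 4293, 633 to 1748 and 578 to 1140, and 7 to 249 for the interaction. Pairs called ranged from 4 to 7. Log2 changes whose sign turned ranged from -0.55 to 0.04 (Npas2, disease at 26 weeks), -0.18 to 0.07 (Per3) and -0.43 to 0.48 (Nr1d1) in disease at 35 weeks, -0.08 to 0.02 (Clock) and -0.03 to 0.37 (Cry1) with age in db/db Unx, -0.11 to 0.09 (Per1), -0.55 to 0.33 (Cry1) and -0.47 to 0.48 (Nr1d1) in db/m, and -0.06 to 0.19 (Per3, interaction). Arntl in disease at 26 weeks ranged from 0.00 to 0.30. Groups of 5 and 6 libraries limit how small a change could pass for genes that vary as much as Cry1. For Nr1d1 the limit lay mostly in db/m 35-week replicate 5. Without it the SE of the disease change at 35 weeks went from 0.53 to 0.18 for Nr1d1 and from 0.56 to 0.41 for Cry1. As the 4 groups share 1 estimate of the spread, that library also enters comparisons without it, such as Nr1d1 at 26 weeks (SE 0.47).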
